A study of Homo sapiens with 4 samples.

Results

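miR-210 and 4 further microRNAs that are often grouped with it as responders to low oxygen (hsa-miR-210, hsa-miR-26a-5p, hsa-miR-26b-5p, hsa-miR-103a-3p and hsa-miR-107 in the files, written here without the species prefix) were followed through small RNA libraries of cultured colorectal cancer cells. The 5 were chosen by name, as miRNAs reported to respond to low oxygen and with no threshold on a measured value, out of 1882 miRNA names present in all 4 files. HT29 and HCT15 are established human colorectal adenocarcinoma lines. Each was sampled as parental cells in medium with 10% FBS (DMEM for HT29, RPMI for HCT15) and as spheres, which the series title treats as colon cancer stem cells, in DMEM-F12 with N2 Plus supplement and the growth factors bFGF and EGF, with no serum named. The study asked which small RNAs differ between the cultures. There was 1 library per line and culture, and the base medium, the supplements and growth as spheres changed together, so they cannot be told apart. The labels give an atmosphere of air with CO2 for parental cells and name no oxygen level for spheres, so spheres against parental cells is not a comparison of oxygen levels.

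MicroRNAs are short RNAs that guide the silencing complex to messenger RNAs, chiefly through the seed near their 5′ end. When oxygen falls, the hypoxia-inducible factors HIF-1 and HIF-2 accumulate and switch on genes of glycolysis, angiogenesis and pH control, and miR-210 is the miRNA most regularly found among these genes. Its best-known target is ISCU, an iron-sulphur cluster scaffold of mitochondria, through which it lowers respiration. The miR-26 family, known for repressing EZH2, and the miR-103 and miR-107 family, known for repressing DICER1, have been reported to rise under low oxygen as well, and miR-107 has also been described as a repressor of ARNT, the partner of HIF1A.

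The mature sequences below are from RefSeq (GRCh38.p14), where all 5 names were matched, miR-210 as miR-210-3p. They are shown because they tell which of these miRNAs can share targets and which can share reads. They run 5′ to 3′, with the seed (bases 2 to 8) in capitals.
miR-210: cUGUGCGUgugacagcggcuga
miR-26a-5p: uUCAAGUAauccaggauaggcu
miR-26b-5p: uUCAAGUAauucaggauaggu
miR-103a-3p: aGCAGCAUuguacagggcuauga
miR-107: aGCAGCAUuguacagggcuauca
The 5 hold 3 different seeds. miR-26a-5p and miR-26b-5p have the same seed and differ at 2 of 21 compared bases, C11U and C21U, counted from the 5′ end with the base of miR-26a-5p first. miR-103a-3p and miR-107 also share a seed and differ at 1 of 23 bases, G22C, with the base of miR-103a-3p first. No seed is common to miR-210 and the other 4, and miR-210 is the most GC-rich, at 63.6% against 33.3% to 47.8%. Other listed names with the miR-26 seed were miR-1297 and miR-4465, both at 0 reads in the 4 libraries.

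Each hairpin lies inside a host gene on its own strand (GENCODE 29, GRCh38), in an intron. MIR210 (chromosome 11, 568089 to 568198, minus strand) is in the noncoding MIR210HG. miR-26a-5p comes from MIR26A1 (chromosome 3, 37969404 to 37969480, plus strand) in CTDSPL and MIR26A2 (chromosome 12, 57824609 to 57824692, minus strand) in CTDSP2, and miR-26b-5p from MIR26B (chromosome 2, 218402646 to 218402722, plus strand) in CTDSP1. These hosts encode small phosphatases that act on RNA polymerase II. miR-103a-3p comes from MIR103A1 (chromosome 5, 168560896 to 168560973, minus strand) in PANK3 and MIR103A2 (chromosome 20, 3917494 to 3917571, plus strand) in PANK2, and miR-107 from MIR107 (chromosome 10, 89592747 to 89592827, minus strand) in PANK1. The PANK genes encode pantothenate kinases, which start coenzyme A synthesis. Reads of miR-26a-5p and miR-103a-3p therefore sum over a pair of loci each and cannot be assigned to either.

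The MIR210 hairpin is shown because the files list it under a name without an arm. The mature miR-210-3p, bases 66 to 87 of 110, is in capitals.
MIR210: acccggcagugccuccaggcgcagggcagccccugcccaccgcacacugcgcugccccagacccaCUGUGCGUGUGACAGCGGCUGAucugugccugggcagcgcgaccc
The start region of its host is shown next, because HIF binds a core of the letters ACGTG. It covers 250 bases before and 50 after the start of MIR210HG (GRCh38.p14, chr11:568408-568707, minus strand), with ACGTG, searched on both strands, in capitals.
MIR210HG: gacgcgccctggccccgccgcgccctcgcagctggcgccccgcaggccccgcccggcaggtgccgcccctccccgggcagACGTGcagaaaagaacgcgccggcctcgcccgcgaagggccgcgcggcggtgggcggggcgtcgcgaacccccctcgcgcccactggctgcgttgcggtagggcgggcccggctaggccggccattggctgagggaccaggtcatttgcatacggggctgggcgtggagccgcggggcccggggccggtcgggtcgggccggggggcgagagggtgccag
ACGTG occurred at 1 place, 170 bases before the start. For CTDSPL, host of MIR26A1, no window was found, so it was not searched. Of the windows of the remaining hosts, 4 of 7 of CTDSP1, host of MIR26B, held ACGTG, and none of CTDSP2 and PANK1 to PANK3 did. It occurs in 21.4% of all 35116 RefSeq windows of this length, so its presence in a window is a description of the letters and no measure of binding. No other form of the core was searched, so a window without ACGTG is not shown to lack a HIF core.

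Reads listed under miRNA names came to 5806540 for the parental and 12794274 for the sphere library of HT29. The HCT15 files hold RPKM, which corresponded to about 3183683 (parental) and 2317090 reads (spheres), and read numbers given for HCT15 are these equivalents. Levels are in CPM, the share of a library's listed miRNA reads scaled to 1000000, with exact Poisson 95% intervals that cover counting error only. In such bulk samples, fewer cells that hold a miRNA and less of it per cell cannot be told apart. No library had a replicate. All 6 miRNA markers of colorectal epithelium were at 10 CPM or more in every library. Among 16 markers of other cell types, the most abundant were miR-142-3p of blood cells (381 CPM in parental cells, 367 in spheres), miR-126-3p of endothelium (132 and 147) and miR-1 of muscle (165 and 1156), all in HT29, followed by miR-486-5p of blood cells at 43.0 and 35.0 CPM in HCT15. In HT29 the 3 muscle markers summed to 166 CPM in parental cells and 1159 in spheres, nearly all of it miR-1. The other members, miR-133a and miR-206, were at 0.689 and 0 CPM in parental cells and at 2.74 and 0.391 in spheres. Thus miR-1 was higher in HT29 spheres, as miR-210 was. In HCT15 all 3 were at 0 in both cultures, where miR-210 was also higher in spheres.

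miR-210 was scarce in both lines and higher in the sphere library of each. Parental HT29 cells had 143 CPM of it (interval 133 to 153, 830 reads) and HT29 spheres 579 CPM (566 to 593, 7410 reads). In parental HCT15 cells it was at 58.4 CPM (50.3 to 67.4, 186 reads) and in HCT15 spheres at 145 (130 to 161, 335 reads). The HCT15 sphere level thus only reached that of HT29 parental cells, with overlapping intervals, although the files of the lines hold different units, counts for HT29 and RPKM for HCT15. By rank it went from place 180 to 90 among the miRNAs of HT29 and from 203 to 145 among those of HCT15, where place 1 is the most abundant.

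The miR-26 pair was far more abundant than miR-210, and its levels differed by less than 2-fold between the cultures of a line. miR-26a-5p was at 2449 CPM (parental) and 1729 CPM (spheres) in HT29, and at 14070.3 CPM (parental) and 11988 CPM (spheres) in HCT15. miR-26b-5p was at 1955 (parental) and 1174 CPM (spheres) in HT29 and at 2909 (parental) and 2906 CPM (spheres) in HCT15. Both were thus lower as a share of reads in HT29 spheres, whereas in HCT15 only miR-26a-5p was, and miR-26b-5p was level. The difference between the lines was mainly in miR-26a-5p, which was 1.25 times miR-26b-5p in HT29 parental cells and 4.84 times in HCT15 parental cells.

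The level of miR-103a-3p was 3761 CPM (parental) and 2803 CPM (spheres) in HT29, and 1082 CPM (parental) and 1131 CPM (spheres) in HCT15. miR-107, its near-identical partner, was at 1779 (parental) and 1345 CPM (spheres) in HT29 and at 494 (parental) and 502 CPM (spheres) in HCT15. The pair was more abundant in HT29, the reverse of miR-26a-5p. In HCT15 the intervals of parental cells and spheres overlapped for both, and in HT29 they did not. In every library miR-103a-3p held 67.6% to 69.2% of the reads of the pair. It comes from more loci than miR-107 and differs from it at 1 of 23 bases. The share may therefore depend on how reads that match both were assigned, which was not tested.

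**Figure D1:**
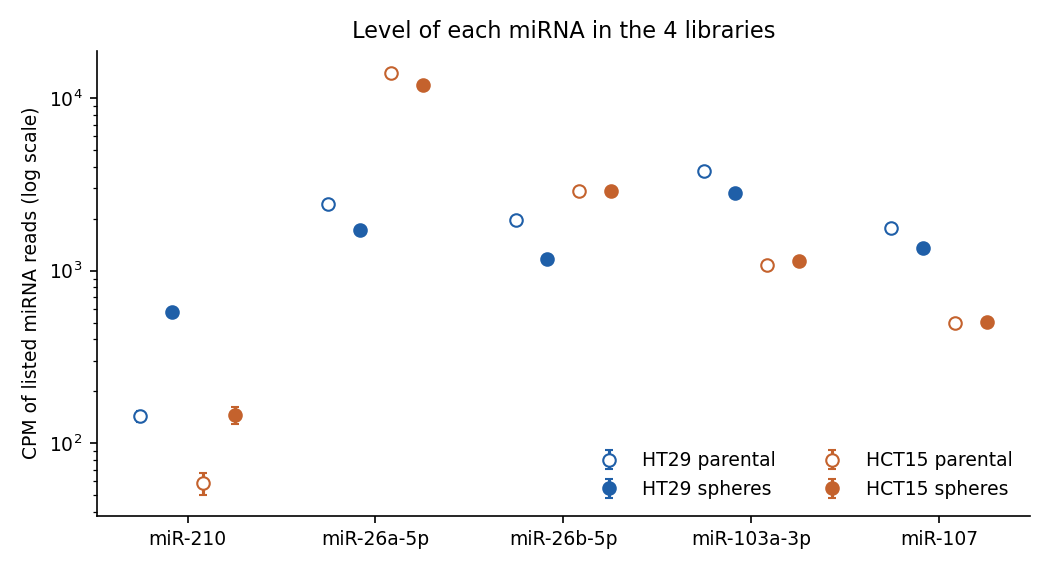
Level of each miRNA in CPM of listed miRNA reads on a log scale, with open points for parental cells, filled points for spheres and bars for exact Poisson 95% intervals (counting error only, mostly smaller than the points). miR-210 lies lowest in each library, between 58.4 and 579 CPM, and has its filled points above its open points in both lines.

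miR-210 was last in order of level in all 4 libraries, and the gap above it narrowed in spheres. In HT29 parental cells the order was miR-103a-3p, miR-26a-5p, miR-26b-5p, miR-107 and miR-210, and in HT29 spheres miR-107 and miR-26b-5p had changed places. In both HCT15 libraries the order was miR-26a-5p, miR-26b-5p, miR-103a-3p, miR-107 and miR-210. No neighbours in these orders had overlapping counting intervals. The 4th place was 12.4 times miR-210 in parental HT29 cells and 2.03 times in HT29 spheres, and 8.46 times in parental HCT15 cells and 3.47 times in HCT15 spheres. Together the 5 held 1.01% (parental) and 0.763% (spheres) of the HT29 reads, and 1.86% (parental) and 1.67% (spheres) of the HCT15 reads.

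Ratios of spheres to parental cells were then taken on a log2 scale after TMM scaling, which sets the bulk of miRNAs near 0, with a prior count of 2. With 1 library per culture no test was made within a line, and intervals are exact conditional 95% intervals for counting error. miR-210 had a log2 ratio of 2.57 in HT29 (interval 2.47 to 2.68, 5.93-fold) and 1.64 in HCT15 (1.39 to 1.92, 3.12-fold). Among miRNAs that averaged 50 CPM or more over the libraries of a line, it had the 5th highest ratio of 221 in HT29 and the 4th highest of 201 in HCT15. The HT29 ratio was above that of HCT15 by 0.93, and the counting intervals did not overlap; without replicates this difference between the lines was not tested.

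The other 4 stayed within a narrow band. In HT29 their log2 ratios were 0.05 for miR-26a-5p (0.02 to 0.08), -0.18 for miR-26b-5p (-0.22 to -0.15), 0.13 for miR-103a-3p (0.10 to 0.15) and 0.15 for miR-107 (0.11 to 0.18). In HCT15 they were 0.12 for miR-26a-5p (0.10 to 0.14), 0.35 for miR-26b-5p (0.30 to 0.39), 0.41 for miR-103a-3p (0.34 to 0.49) and 0.37 for miR-107 (0.26 to 0.48). Among the miRNAs at this level their ratios took places 96 to 127 of 221 in HT29, near the middle. In HCT15 miR-26a-5p was at place 96 of 201, but miR-103a-3p (50), miR-107 (58) and miR-26b-5p (64) were in the upper part, and miR-103a-3p was at or above 75.6% of miRNAs. Of the 5, only miR-210 was at least 2-fold higher in each line, beside 12.2% of all miRNAs at this level in HT29 and 3.98% in HCT15, and 0 were at least 2-fold lower, beside 19.9% and 1.99%.

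The scaling decided the sign of these small ratios but not that of miR-210. Over 6 scalings miR-210 ranged from 2.02 to 2.82 in HT29 and from 1.30 to 1.88 in HCT15. miR-26a-5p ranged from -0.50 to 0.31 in HT29 and from -0.23 to 0.35 in HCT15, and miR-26b-5p from -0.74 to 0.07 and from -0.0017 to 0.58. In HT29 miR-103a-3p ranged from -0.42 to 0.38 and miR-107 from -0.40 to 0.40, while in HCT15 both were above 0 under each scaling, from 0.06 to 0.65 and from 0.02 to 0.61. The median of all miRNAs at the level moved in the same way, from -0.57 with total counts to 0.23 with the upper quartile in HT29 and from -0.27 to 0.32 in HCT15. With it moved the background, from 11 miRNAs at least 2-fold higher and 73 lower to 37 and 33 in HT29, and from 5 and 21 to 14 and 1 in HCT15, against 27 and 44 and against 8 and 4 with TMM.

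**Figure D2:**
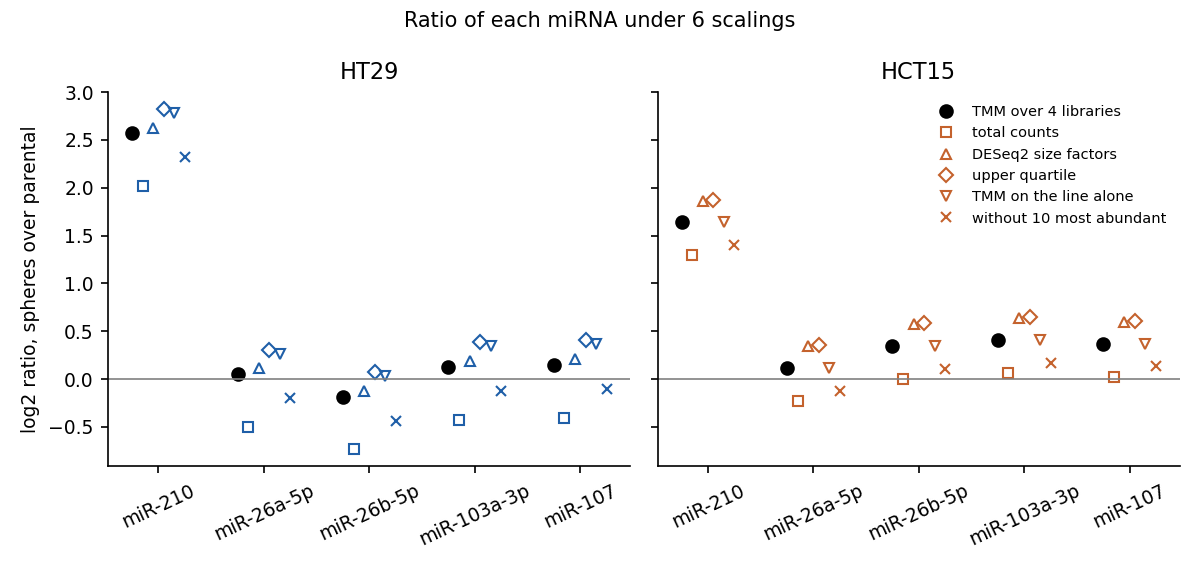
Log2 ratio of spheres over parental cells for each miRNA in HT29 (left) and HCT15 (right), with a filled black point for TMM over 4 libraries and open symbols or crosses for 5 other scalings. The scalings move all 5 miRNAs together, and miR-210 stays at 2.02 or more in HT29 and at 1.30 or more in HCT15 while the others lie around 0.

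Whether the others changed as much as miR-210 can be asked without any scaling, from the ratio of the reads of 2 miRNAs in the same library. Per 1000 reads of the other 4 summed, miR-210 had 14.4 reads in parental HT29 cells and 82.1 in HT29 spheres, and it had 3.15 in parental HCT15 cells and 8.75 in HCT15 spheres. In HT29 the log2 ratio of miR-210 exceeded that of miR-26b-5p by 2.75 (interval 2.65 to 2.87), of miR-26a-5p by 2.52 (2.41 to 2.63), of miR-103a-3p by 2.44 (2.34 to 2.55) and of miR-107 by 2.42 (2.31 to 2.53). In HCT15 the excess was 1.31 over miR-26b-5p (1.04 to 1.58), 1.54 over miR-26a-5p (1.27 to 1.81), 1.24 over miR-103a-3p (0.97 to 1.52) and 1.28 over miR-107 (1.00 to 1.57). Each of the 8 intervals lay above 0, so none of the 4 kept pace with miR-210 in these libraries, as far as counting error goes. This measure does not tell a smaller rise from no rise.

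Within the seed families the partners stayed together to a different degree. Reads of miR-103a-3p were 2.11 (parental) and 2.08 times (spheres) those of miR-107 in HT29, and 2.19 (parental) and 2.25 times (spheres) in HCT15. A log2 change of -0.02 in HT29 (interval -0.06 to 0.02) and of 0.04 in HCT15 (-0.09 to 0.17) resulted, and no change was detectable at this depth. The ratio of miR-26a-5p to miR-26b-5p went from 1.25 to 1.47 in HT29 (log2 change 0.23, interval 0.19 to 0.28). The same ratio in HCT15 went from 4.84 to 4.13 (-0.23, -0.28 to -0.18). The miR-26 balance thus moved toward miR-26a-5p in the HT29 spheres and toward miR-26b-5p in the HCT15 spheres.

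Shared reads bear on these balances. In HCT15 the deposited values of miR-26a-5p and miR-26b-5p came to 44795.3 and 9262.66 reads in parental cells and to 27777.3 and 6733.67 in spheres, none of them whole, but their sums were whole to within 0.01 reads, at 54058 and 34511. Likewise miR-103a-3p and miR-107 came to 2620.33 and 1163.67 reads in spheres and to 3784 in sum. In these HCT15 libraries parts of reads were therefore divided between the members of a pair. How many reads were divided cannot be read from the values. The HT29 counts were all whole, so reads were not split into parts there, but shared reads may have been counted in full for each member. Sums of a pair in HT29 may then hold such reads more than once. The lines may thus follow different counting rules, and these balances are not strictly comparable between the lines. Summing each pair before the comparison left the excess of miR-210 at 2.62 over the miR-26 pair and 2.44 over the pair of miR-103a-3p and miR-107 in HT29, and at 1.50 and 1.26 in HCT15.

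**Figure D3:**
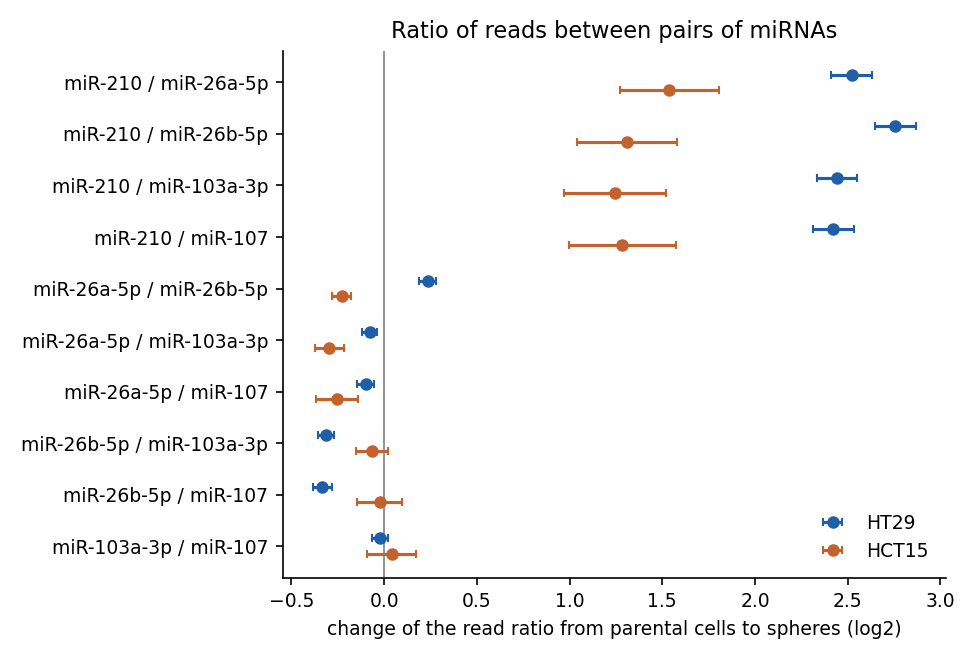
Log2 change from parental cells to spheres in the ratio of reads of the first miRNA to the second, for the 10 pairs of the 5 miRNAs, with exact conditional 95% intervals for counting error. The 4 pairs with miR-210 lie between 2.42 and 2.75 in HT29 and between 1.24 and 1.54 in HCT15, and the 6 pairs without it lie between -0.33 and 0.23.

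Across the lines, with the lines as the only replicates, miR-210 did not pass the test. In a limma fit with a term for the line, 0 of 377 miRNAs (0.0%) were called at 0.05 after Benjamini-Hochberg adjustment. Before adjustment 21 (5.57%) were under 0.05 by limma, and of the 5 only miR-210 was. Its log2 fold change was 2.10 (SE 0.48, 2 of 2 lines higher), with an unadjusted limma p of 0.0146 and an adjusted p of 0.729. By limma the other 4 had log2 fold changes of 0.08 (miR-26a-5p, SE 0.30), 0.08 (miR-26b-5p, SE 0.38), 0.27 (miR-103a-3p, SE 0.37) and 0.26 (miR-107, SE 0.40), with adjusted p from 0.818 to 0.968. By edgeR's quasi-likelihood test 0 were called as well, and 18 were under 0.05 before adjustment. miR-210 did pass without a filter on low values (limma adjusted p = 0.00493, among 6 calls of 1234 miRNAs). It also passed with DESeq2 on reads (adjusted p = 0.00925, among 5 calls), so the call depends on the method. Without the filter its log2 fold change was the same (2.10) and its SE nearly so (0.49). That pass thus came from the miRNAs added to the fit and not from a clearer change of miR-210.

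The files also listed 4 other arms of the miR-26 and miR-103 hairpins and none for miR-210 or miR-107. All were scarce, and miR-26b-3p and miR-103a-2-5p reached 10 CPM in a library. miR-103a-2-5p, from MIR103A2, was at 34.8 CPM in parental HT29 cells and at 5.94 in HT29 spheres (202 and 76 reads, log2 ratio -1.96, interval -2.40 to -1.61). miR-103a-3p, which comes from MIR103A1 as well as MIR103A2, had 0.13, so the number of reads of miR-103a-3p for each read of miR-103a-2-5p went from 108 to 472 (log2 change 2.13, interval 1.74 to 2.53). In HCT15 it rested on 6 and 4 reads, and a change in this balance was not detectable at this depth (-1.89 to 2.46). miR-26b-3p was at 7.23 and 4.06 CPM in HT29 and at 54.5 and 35.0 CPM in HCT15, where the reads of miR-26b-5p per read of miR-26b-3p went from 53.4 to 83.0 (log2 change 0.64, interval 0.24 to 1.04). The HCT15 values of miR-26b-3p are whole reads only for a miRNA longer than the RefSeq entry, so these are approximate. miR-26a-1-3p and miR-26a-2-3p stayed under 10 CPM. miR-103b, the exact reverse complement of miR-103a-3p over its 23 bases, was listed at 0 in all 4 libraries. Taking 3 reads as the limit that a count of 0 allows, this limit was 0.517 (parental) and 0.234 CPM (spheres) in HT29 and 0.942 (parental) and 1.29 CPM (spheres) in HCT15.

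To find the miRNAs whose pattern was most like that of miR-210, each miRNA averaging 50 CPM or more across the 4 libraries was placed by its HT29 and HCT15 log2 ratios, and the distance to miR-210 was taken. This likeness rests on 2 ratios only. The nearest of 238 were miR-1307-5p (2.40 in HT29 and 0.72 in HCT15, distance 0.94), miR-148a-3p (2.32 and 0.73, distance 0.94), miR-146b-5p (1.45 and 1.78, distance 1.13), miR-4792 (2.35 and 2.87, distance 1.24) and miR-152 (2.03 and 0.40, distance 1.35). All 5 were thus higher in the spheres of both lines, but the neighbours of miR-210 were sparse. The other 4 members were at distances of 2.73 to 3.04, near the median of all 238 (3.02), at places 86 to 123. For them the nearest miRNAs were miR-191-5p to miR-26a-5p, miR-23c to miR-26b-5p, miR-183-3p to miR-103a-3p and miR-320b to miR-107, at distances of 0.019 to 0.061.

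**Figure D4:**
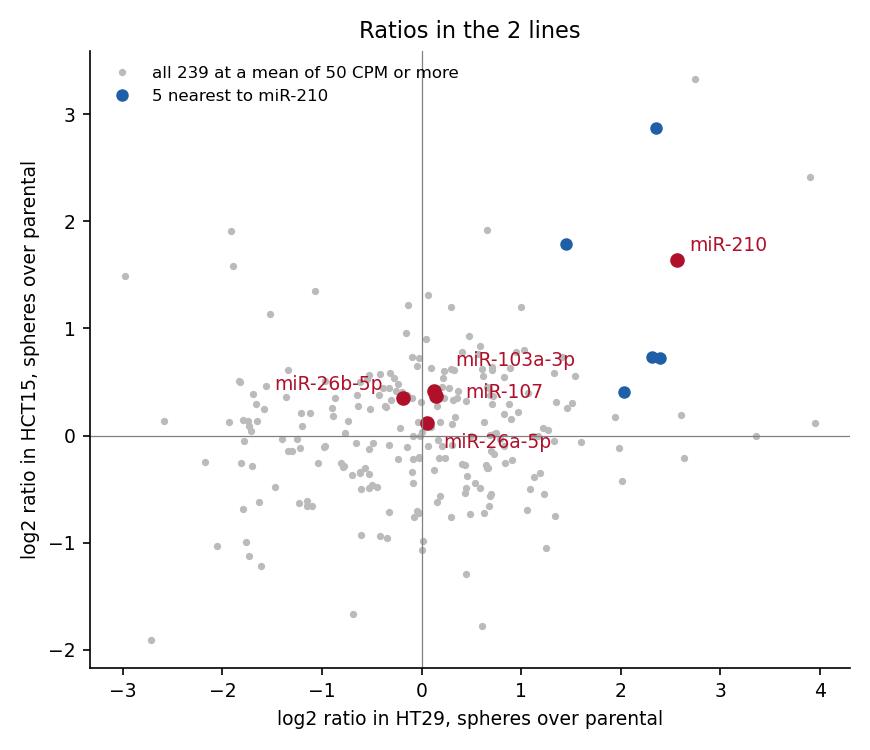
Log2 ratio of spheres over parental cells in HCT15 against that in HT29 for the 239 miRNAs averaging 50 CPM or more across the 4 libraries (grey), with the 5 miRNAs in red and the 5 nearest to miR-210 in blue. miR-210 lies at upper right, at 2.57 and 1.64, with miR-146a-5p higher in both lines, at 2.75 in HT29 and 3.33 in HCT15. The other 4 red points lie within the cloud.

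A wider list of 22 miRNAs commonly cited as raised by low oxygen, which includes the 5, was read in the same way. In HT29, 18 of them averaged 50 CPM or more, of which 2 were at least 2-fold higher in spheres (against the 12.2% above) and 0 at least 2-fold lower. Under total counts 1 was higher and 2 were lower by this measure, beside 11 higher and 73 lower of all 221. Under the upper quartile 4 were higher and 0 lower, beside 37 and 33. The 2 with TMM were miR-210 and miR-192-5p, a miRNA of intestinal epithelium (92120.3 to 157860 CPM, log2 ratio 1.33), the second of which ranged from 0.78 to 1.58 over the scalings. The list's median log2 ratio was 0.14, beside -0.02 for all 221 miRNAs at this level. In HCT15, 20 reached the level, of which 2 were at least 2-fold higher (against 3.98%) and 0 at least 2-fold lower, with a median of 0.39 beside 0.08 for all 201. They were miR-210 and miR-181a-5p (9737 to 17576 CPM, 1.20), which ranged from 0.85 to 1.44.

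Beyond these the list was split in HT29, where 12 of 18 were above 0 with TMM (108 of all 221). Under every scaling 5 were above and 5 below 0, a count not made over all miRNAs. In HT29, miR-27a-3p (0.88), miR-155-5p (0.83) and miR-24-3p (0.67) had the next highest ratios, and miR-30b-5p (-0.90), miR-106a-5p (-0.52), miR-23a-3p (-0.39) and miR-23b-3p (-0.37) the lowest. These 7 kept their signs under the 6 scalings. miR-23a-3p and miR-24-3p, which can be cut from the same primary transcript, thus had opposite signs in HT29. In HCT15, 18 of 20 were above 0 with TMM, beside 112 of all 201. Under every scaling 11 were above and 0 below 0. Again no count over all miRNAs was made to set beside these, so they are not read as a result about the list. Several list members belong to the same family, such as miR-181a-5p, miR-181b-5p and miR-181c-5p, so these are not counts of independent members. The next highest after those named were miR-181b-5p, miR-125b-5p and miR-181c-5p (0.63, 0.63 and 0.61). The lowest were miR-373-3p (-0.21, up to 0.02 over the scalings) and miR-155-5p (-0.09, up to 0.14). miR-373-3p, reported as induced by HIF in other cells, had a log2 ratio of 2.64 in HT29, but at 14.5 and 62.3 CPM. In HCT15 it was at 34501.9 and 23392.1 CPM. Also under the level in HT29 were miR-424-5p (66.8 and 14.9 CPM, -1.61, interval -1.88 to -1.36), miR-195-5p (-1.45) and miR-125b-5p (0.89). In HCT15, where they were under the level too, miR-424-5p was at 1.15 and miR-195-5p at 0.50. Across the lines 0 of the 21 tested list members passed limma, the smallest adjusted p being 0.729, and their median log2 fold change was 0.32, beside -0.05 over all 377.

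**Figure D5:**
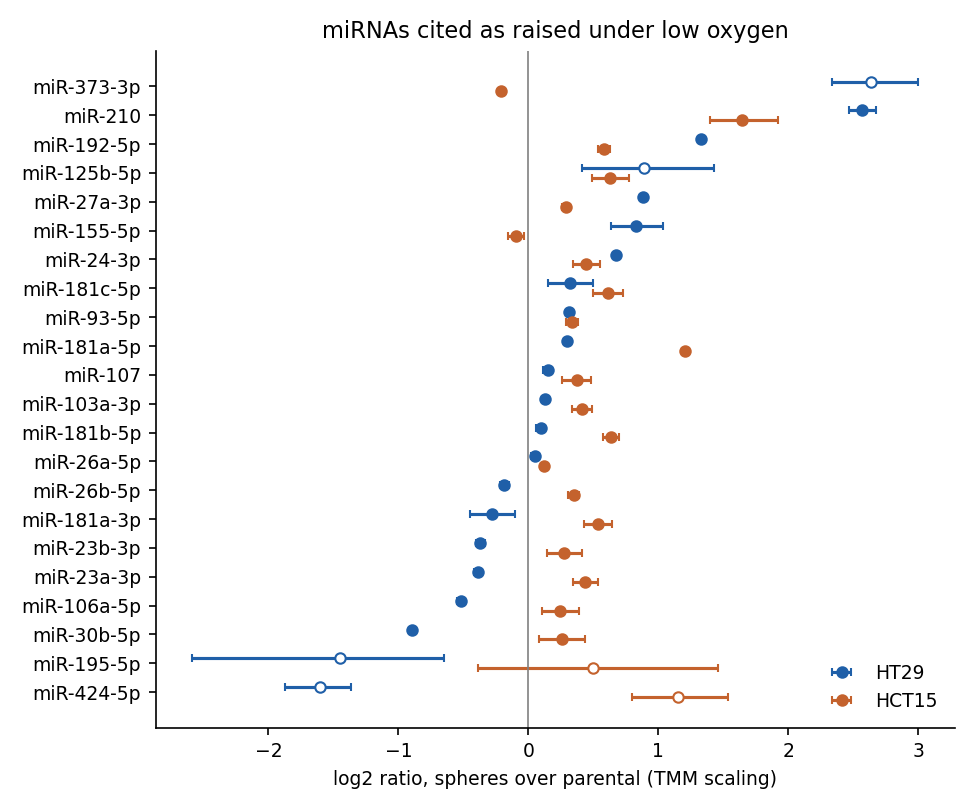
Log2 ratio of spheres over parental cells for the 22 miRNAs of the wider list in HT29 (blue) and HCT15 (orange), ordered by HT29, with exact conditional 95% intervals for counting error. Open points have a mean under 50 CPM in that line, and among the filled points miR-210 has the highest ratio in both lines, at 2.57 and 1.64.

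Of 9 miRNAs commonly cited as repressors of HIF1A, the oxygen-regulated subunit of HIF-1, 5 in HT29 and 4 in HCT15 reached the level. In HT29, 1 was at least 2-fold lower (against 19.9%), miR-18a-5p, at 7403 and 1593 CPM (log2 ratio -1.66, interval -1.69 to -1.64), and 0 were at least 2-fold higher. miR-17-5p and miR-20a-5p of the same cluster were at -0.65 and -0.42 in HT29, miR-429, of the miR-200 family, was at 0.71, and miR-155-5p, which is in the hypoxia list too, was highest at 0.83. In HCT15 the 4 were between -0.09 and 0.57, and miR-18a-5p was under the level, at 43.2 and 41.6 CPM. The median was -0.42 in HT29 and 0.33 in HCT15. By limma 0 of the 6 tested members passed across the lines.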

How the data were processed

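The labels' protocols name Illumina's TruSeq Small RNA kit and total RNA as input. Per the file headers, names are from miRBase R19, HT29 values are raw read counts and HCT15 values RPKM. The submitters' processing notes name hg19. For aligner, trimming and shared reads, the method is not given in the sources used here. The deposited RPKM values did not fall with miRNA length. The value of 1 read, 0.162 in parental cells and 0.263 in spheres for 22 bases, followed length L as L/(L + 9), and it was used to turn the deposited RPKM into reads. In spheres the commonest low value was taken as 2 reads. Within 0.02 reads, 71.2% of 521 and 71.9% of 242 values under 30 reads were whole, and 124 and 4 miRNAs were at 1 read, so a listed 0 in spheres can be a dropped single read.

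limma 3.58.1 (R 4.3.3) was run on log2(TMM-scaled CPM + 1) with a variance trend and a term for cell line, for miRNAs that reached 10 CPM in 2 or more libraries, with Benjamini-Hochberg adjustment at 0.05. Fold changes of scarce miRNAs are understated on this scale. The fit has 1 residual degree of freedom, and limma's variance trend over all miRNAs adds a median of 2.7 prior degrees of freedom. Standard errors and p-values of limma thus combine a miRNA's own spread between 2 lines with the spread typical of other miRNAs. edgeR 4.0.16, DESeq2 1.42.0 and limma-voom on rounded reads, other scalings, pseudocounts, filters and prior counts were alternatives. Intervals used Python 3.11.15 with scipy 1.17.1. The fit was run on simulated data in which a changed miRNA had the same change in both lines. Among the intervals, only those of the ratios within a line were simulated. The Poisson intervals and those for pairs of miRNAs were not. The miRNAs and lists were chosen with earlier results of these data known. Named were the 5, their other arms at 10 CPM or more, list members at a mean of 50 CPM or more in a line, the 5 miRNAs nearest to miR-210 and the nearest to each other member. Outside that rule are miR-373-3p and miR-125b-5p in HT29, miR-18a-5p in HCT15, and miR-424-5p, miR-195-5p and miR-146a-5p. So are the scarcer arms and seed partners, and cell type markers.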

Additional observations from a re-analysis of the deposited data

Results flagged for a closer look

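The log2 ratio of miR-26b-5p had opposite signs in the lines, at -0.18 in HT29 and 0.35 in HCT15, with counting intervals that exclude 0 in both. The difference was not tested, since each line has 1 library per culture. Both signs depend on the scaling: the HT29 value ranged up to 0.071 and the HCT15 value down to -0.0017. Free of scaling, the change of miR-26b-5p against miR-103a-3p was -0.31 in HT29 (interval -0.36 to -0.27) and -0.07 in HCT15 (-0.15 to 0.02).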

How the results depend on the processing

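The log2 ratio of miR-210 kept its sign under every alternative run. In HT29 it was 2.02 with total counts, 2.32 without the 10 most abundant miRNAs, 2.78 with TMM on the line alone, 2.81 over all names of the HT29 files and 2.82 with the upper quartile, and in HCT15 it was 1.30 with total counts. Its excess over miR-26b-5p in HT29 was 2.62 with the miR-26 pair summed. Across lines, the number of calls was 6 without a filter, 5 with DESeq2 and 3 with limma-voom, against 0. miR-210 passed without a filter (2.10, limma adjusted p = 0.00493) and with DESeq2 (2.23, adjusted p = 0.00925). Its SE without a filter, 0.49, was no smaller than the 0.48 of the main fit. Over all the alternatives its adjusted p ranged from 0.00493 to 0.999, the highest with no replicate block, that is without a term for cell line (log2 fold change 2.10, 0 calls). Leaving out a line leaves 1 library per culture, so no count can be given, and the miR-210 value was 1.64 without HT29 and 2.57 without HCT15.

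Signs that turned were those of small values. With total counts the change across lines was -0.37 for miR-26a-5p and miR-26b-5p, -0.18 for miR-103a-3p and -0.19 for miR-107, and for miR-26b-5p it was -0.18 without HCT15 and 0.35 without HT29. In HT29 total counts gave -0.50, -0.42 and -0.40 for miR-26a-5p, miR-103a-3p and miR-107, and leaving out the 10 most abundant gave -0.20, -0.12 and -0.10. miR-26b-5p in HT29 was 0.071 with the upper quartile, 0.029 with TMM on the line alone and 0.056 over all names. In HCT15 miR-26a-5p was -0.23 with total counts and -0.12 when the 10 most abundant were left out, and miR-26b-5p was -0.0017 with total counts. The shifts from scaling, unlike those from leaving out a line, are common to all miRNAs of a line by construction. In HT29, hypoxia-list members at least 2-fold changed numbered 4 with the upper quartile (4 higher), beside 37 higher and 33 lower of all 221 miRNAs. With total counts they numbered 3 (1 higher, 2 lower), beside 11 and 73. The main value was 2 (both higher), beside 27 and 44. At a minimum of 10 CPM they numbered 4 (3 higher, 1 lower), and no share over all miRNAs was counted there. In HCT15 the number was 1 with total counts, beside 5 higher and 21 lower of all 201, against 2, beside 8 and 4. HIF1A repressors in HT29 numbered 2 with total counts (both lower) and 2 with the upper quartile (1 each way), against 1. The counts over all 221 miRNAs given above for each scaling apply to these as well. Depth limits the scarcer arms in HCT15.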
